A study of Mus musculus with 16 samples.

Results

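The genes described here encode the machinery of mitosis: the kinases and cyclins that start it, the kinetochore, kinesin and spindle proteins that move chromosomes, the checkpoint that holds the cell until all chromosomes are attached, and the proteins that end it. The list names 48 genes. A member was taken by its gene symbol in the platform annotation and was represented by its brightest probe, the one with the highest mean log2 intensity over all 16 arrays. The array carried a named probe for 43 of the 48, among 16593 genes with such a probe. Ccnb1, Aurkb, Cenpf, Racgap1 and Smc4 had none and are not analysed here. A probe was tested if 2 or more of the 16 arrays gave it an intensity above their median, which left 41 members among 10607 genes tested. Pttg1 (securin, the inhibitor of separase) and Nek2 (a centrosome kinase) did not pass, with 0 of 16 arrays above the median for either.

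RNA came from crypt cells of the duodenum of mice on a mixed B6/129S6 background, aged 8 to 12 weeks, and each array holds 1 sorted fraction of 1 mouse. All mice carried Lgr5-EGFP, a green reporter of intestinal stem cells. For 24 h they drank doxycycline at 4 mg/ml with 1% sucrose, which induced TdTomato-BRAF(V600K), a red fluorescent fusion of an oncogenic BRAF kinase, or TdTomato-luciferase as the control. In the BRAF line, 3 mice gave 4 gates each: R (red high, green low), RG (both high), G (green high, red low) and NEG (both low). In the luciferase line, 2 mice gave RG and G, and no R or NEG fraction of that line is analysed here. The G cells of either line and the NEG cells came from the same induced animals as the red cells, so they had the same doxycycline. The 2 transgenes were in different lines of mice, so line and transgene cannot be told apart, and the promoter that drives the transgene is not given in the sources used here.

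In a dividing cell, CDK1 bound to a cyclin A or B starts mitosis, the polo and Aurora kinases build the spindle, and the anaphase-promoting complex with its co-activator Cdc20 then marks securin and cyclin B for destruction. Most of these genes are transcribed late in the cell cycle, in G2 and mitosis, through promoter elements bound by the MuvB core with B-Myb (Mybl2) and Foxm1. The base of the intestinal crypt holds Lgr5-positive stem cells that divide, and the cells above them divide further before they differentiate, so mitotic transcripts are found in both.

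The arrays and gates were checked before the members were read. All 16 arrays have the same distribution of intensities (array medians 118.9 to 119.9), so a level is a position within that distribution. Lgr5 itself measured 94.9 to 165 in R, 168 to 182 in RG, 244 to 596 in G and 167 to 363 in NEG of the BRAF line, and 138 to 141 in RG and 375 to 538 in G of the luciferase line, so the RG arrays, sorted as EGFP-high, lay below the G arrays of their line, and those of the BRAF line overlapped NEG. The leukocyte marker Ptprc measured 598 to 920 on the 3 NEG arrays and lay below the array median on the other 13. The arrays least like their own group were R of BRAF mouse 1 (mean r 0.914 across kept probes) and both luciferase RG arrays (r 0.916). Counts of members that rest on them are also given below with a mouse or array left out. Values of single genes by role are given with all arrays.

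Promoters of the members are shown first, because the elements behind cell cycle transcription are short and can be read directly. A table of RefSeq promoters (assembly GRCm38.p6, 250 bases before to 50 bases after each start) held 36 of the 41 tested members. Both strands were searched for the cell cycle genes homology region, CHR (TTTGAA, or TTCAAA on the other strand), which the MuvB core contacts, and for the CCAAT box (CCAAT, or ATTGG), which the factor NF-Y binds. In the 5 sequences below, written 5′ to 3′ along the gene's strand in lower case, capitals mark each match. Plk1 is shown because it had the largest difference between the lines in red cells, Cdk1 and Cdc20 as textbook targets, Kif11 because it was lower in R cells, and Ncaph because it was called in the most comparisons and holds neither motif in this window. The windows are chr7:122159185-122159484 on the plus strand for Plk1, chr10:69352863-69353162 on the minus strand for Cdk1, chr4:118437294-118437593 on the minus strand for Cdc20, chr19:37376132-37376431 on the plus strand for Kif11 and chr2:127133905-127134204 on the minus strand for Ncaph.
Plk1: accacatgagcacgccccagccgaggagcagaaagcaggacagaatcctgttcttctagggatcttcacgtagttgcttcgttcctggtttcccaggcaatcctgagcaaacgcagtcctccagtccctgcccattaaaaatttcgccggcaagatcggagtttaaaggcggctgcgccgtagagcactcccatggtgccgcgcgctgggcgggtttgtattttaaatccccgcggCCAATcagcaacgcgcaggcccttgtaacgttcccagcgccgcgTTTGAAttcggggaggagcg
Cdk1: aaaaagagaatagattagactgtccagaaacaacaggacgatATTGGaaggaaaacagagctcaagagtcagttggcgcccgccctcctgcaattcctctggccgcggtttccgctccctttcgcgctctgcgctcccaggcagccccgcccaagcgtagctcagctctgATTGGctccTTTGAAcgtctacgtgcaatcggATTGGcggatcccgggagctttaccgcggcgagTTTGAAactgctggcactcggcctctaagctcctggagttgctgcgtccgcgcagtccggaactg
Cdc20: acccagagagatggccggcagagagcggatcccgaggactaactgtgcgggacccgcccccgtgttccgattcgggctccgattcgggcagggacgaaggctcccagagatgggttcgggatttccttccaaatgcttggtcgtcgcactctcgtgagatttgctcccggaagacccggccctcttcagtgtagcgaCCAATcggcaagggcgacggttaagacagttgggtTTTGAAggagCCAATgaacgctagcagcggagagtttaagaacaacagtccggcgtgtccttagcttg
Kif11: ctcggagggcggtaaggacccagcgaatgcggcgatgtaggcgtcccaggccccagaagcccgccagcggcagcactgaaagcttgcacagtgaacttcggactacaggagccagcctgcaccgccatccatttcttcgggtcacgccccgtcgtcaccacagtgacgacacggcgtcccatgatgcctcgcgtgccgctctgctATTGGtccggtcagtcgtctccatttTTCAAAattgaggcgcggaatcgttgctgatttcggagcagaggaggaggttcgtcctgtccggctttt
Ncaph: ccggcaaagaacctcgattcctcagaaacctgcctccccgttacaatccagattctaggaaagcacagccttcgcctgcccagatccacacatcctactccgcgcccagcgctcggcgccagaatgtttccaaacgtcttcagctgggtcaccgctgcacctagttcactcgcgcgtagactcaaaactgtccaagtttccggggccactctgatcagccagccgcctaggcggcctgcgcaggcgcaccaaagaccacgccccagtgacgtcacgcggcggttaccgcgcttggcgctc

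The CHR letters stood in 26 of these 36 members (72.2%), against 17.6% of the promoters of 13335 genes on the array. The CCAAT letters stood in 28 (77.8%), against 42.5%, and both motifs in 23 (63.9%), against 8.14%. In Plk1, the CHR match began at base 31 and the CCAAT match at base -14, counted from the annotated start as base 1. Cdk1 had 2 CHR matches, at -71 and -15, and 3 CCAAT matches, at -208, -80 and -48. Cdc20 had a CHR match at -18 between CCAAT matches at -53 and -8, and Kif11 had a reverse CHR match at -19 with a reverse CCAAT match at -45. The 37 CHR matches had a median position of -15 and the 72 CCAAT matches one of -72, and 2 matches overlapped another. Members lower in luciferase RG than G held CHR in 9 of 15 and CCAAT in 12 of 15, and members not called there held them in 17 and 16 of 21. Some members have 2 annotated starts (4 of 36), whose windows were pooled for the counts of members. The numbers and median positions of matches were taken per window, so a site lying in both windows of a member was counted in each. A match in these windows is a description of the letters and not a measured binding site.

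Members moved together over the arrays, with 3 exceptions, of which Cdk1 depends on the probe. The mean log2 intensity over the 41 members was 8.13 to 8.33 on the R arrays, 8.82 to 8.84 on RG, 8.80 to 8.94 on G and 8.46 to 8.66 on NEG of the BRAF line, and 8.10 to 8.27 on RG and 8.93 to 8.95 on G of the luciferase line. The BRAF R and luciferase RG arrays were thus the lowest 5 of the 16, BRAF RG lay beside BRAF G, and NEG lay between. Over the 16 arrays, which come from 5 mice and share a normalization, a member's correlation with the mean of the other members was above 0.5 for 37 of 41 and reached 0.94 for Ncaph and Incenp. It was 0.49 for Anln, 0.04 for Cdc25b, -0.39 for Fzr1 and -0.50 for Cdk1. The Cdk1 value is that of its brightest probe (mean log2 intensity 8.69). Its next-brightest probe (8.57) gave differences with the sign of most members, such as -1.05 for luciferase RG minus G. The median over the 820 pairs of members was 0.58, and 95 pairs were below 0. In sorted pools like these, fewer cells in mitosis and less of these transcripts per cell cannot be told apart.

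**Figure D1:**
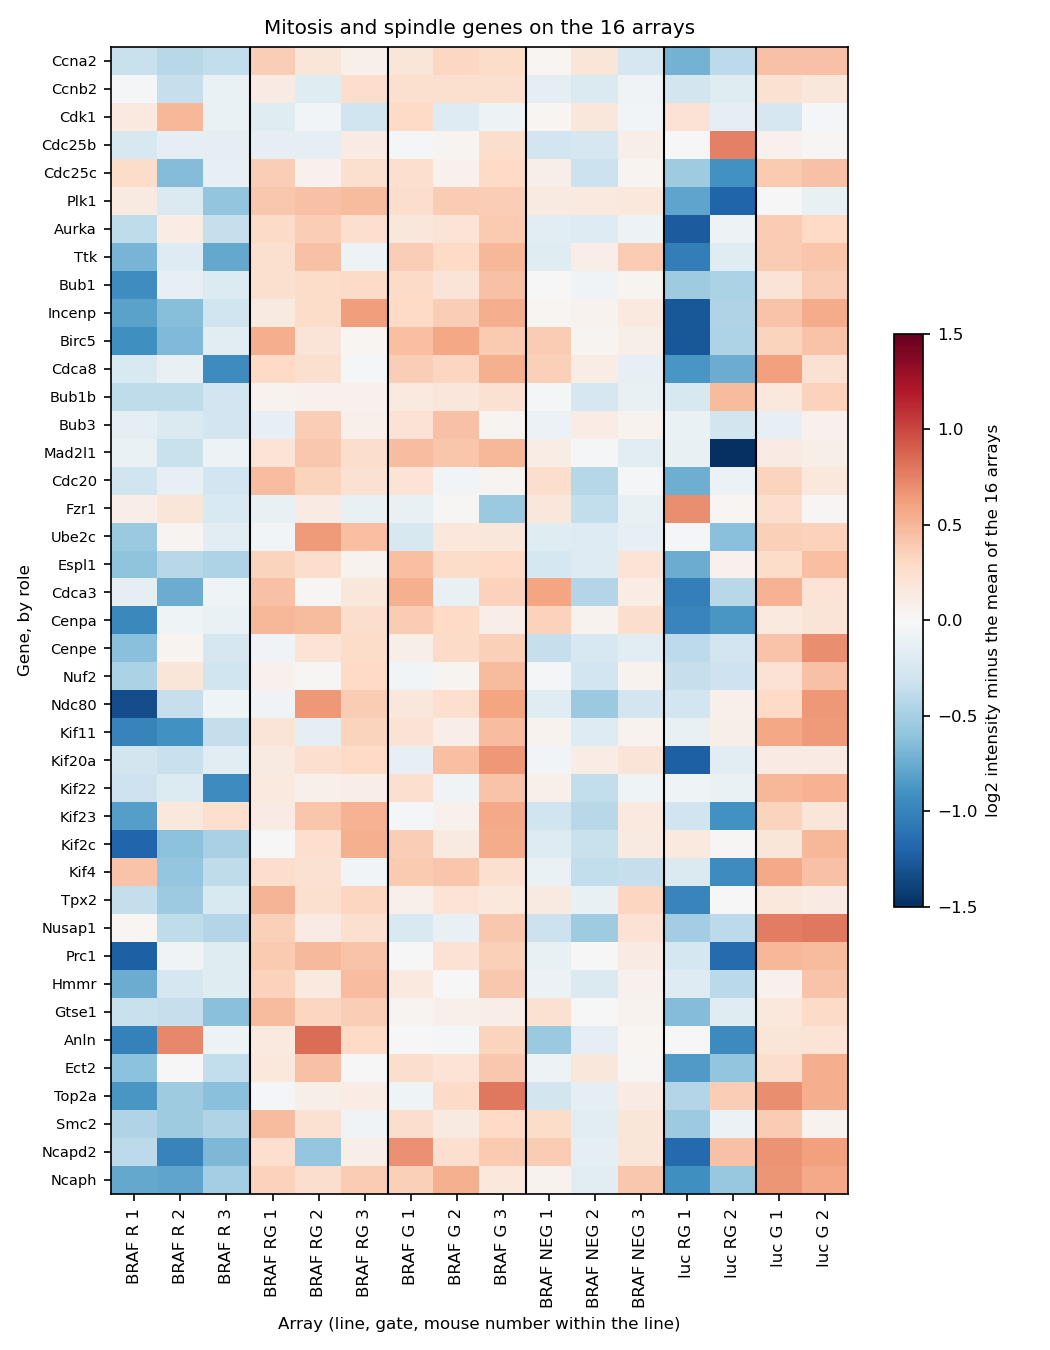
Log2 intensity of the 41 tested members on each of the 16 arrays, minus each gene's mean over the arrays (blue low, red high, colour scale ending at 1.5 either way). Columns are the 6 groups with the mouse number and rows are genes by role. The 3 BRAF R and 2 luciferase RG columns are mostly blue, while the rows of Cdk1, Cdc25b and Fzr1, each drawn from the brightest probe, differ from the rest.

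The comparison of RG with G within the luciferase line sets red Lgr5-high cells beside non-red ones with a control transgene. The kinases Plk1, Aurka, Ttk and Bub1, the 3 tested chromosomal passengers and Ncaph, 1 of 3 tested condensin subunits, were lower in the red cells. Of the 41 members, 18 passed the threshold of a Benjamini-Hochberg adjusted p under 0.05 (limma, adjusted over all 10607 genes tested), all lower in RG, where 11.9% of genes tested passed in either direction and 6.78% passed as lower. The members' median log2 difference was -0.79, or -0.73 with 3 dim members at their bound (a gene is called dim where all arrays of a group, or their mean, lie at or below the array median, which then stands in for its level), against -0.01 over all genes tested, and 38 of 41 differences were negative. For 36 members both RG arrays lay below both G arrays, as they did for 31.7% of genes tested. Within mouse 1 the median was -0.81 and within mouse 2 it was -0.62, with 38 of 41 negative in each. With the mouse as a fixed or a random block, 25 members passed, where 9.93% and 10.2% of genes passed as lower. The count rests on few arrays: without luciferase mouse 1 a single member passed and without mouse 2 10 passed.

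The same comparison in the BRAF line gave no member past the threshold. Here 0.801% of genes tested passed, none of them among the 41 members, and 0 of the 41 had an unadjusted p under 0.05 (limma). The median log2 difference was -0.05 (-0.04 with 2 dim members at their bound), against -0.02 over all genes, and 27 of 41 were negative. The medians within mice 1, 2 and 3 were -0.01, 0.05 and -0.14. The 3 RG arrays lay above the 3 G arrays for 5 members and below them for 4, as for 8.01% and 9.72% of genes tested. With the mouse as a fixed or a random block 0 members passed, where 1.42% and 1.16% of genes passed as higher and 0.471% and 0.424% as lower.

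The difference between these differences, RG minus G in the BRAF line minus RG minus G in the luciferase line, was tested directly. Its median over the members was 0.85, against 0.02 over all genes tested, and 38 of 41 were positive. One member, Ncaph, passed (0.481% of genes tested did in either direction and 0.189% as higher). With the mouse as a fixed block 6 members passed (Ncaph, Incenp, Ect2, Gtse1, Cdc25c and Nusap1), and as a random block 8 (these with Plk1 and Ccna2), where 1.04% and 0.952% of genes passed as higher. The call on Ncaph was lost without any 1 of the 5 mice, with counts of 0 each time.

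**Figure D2:**
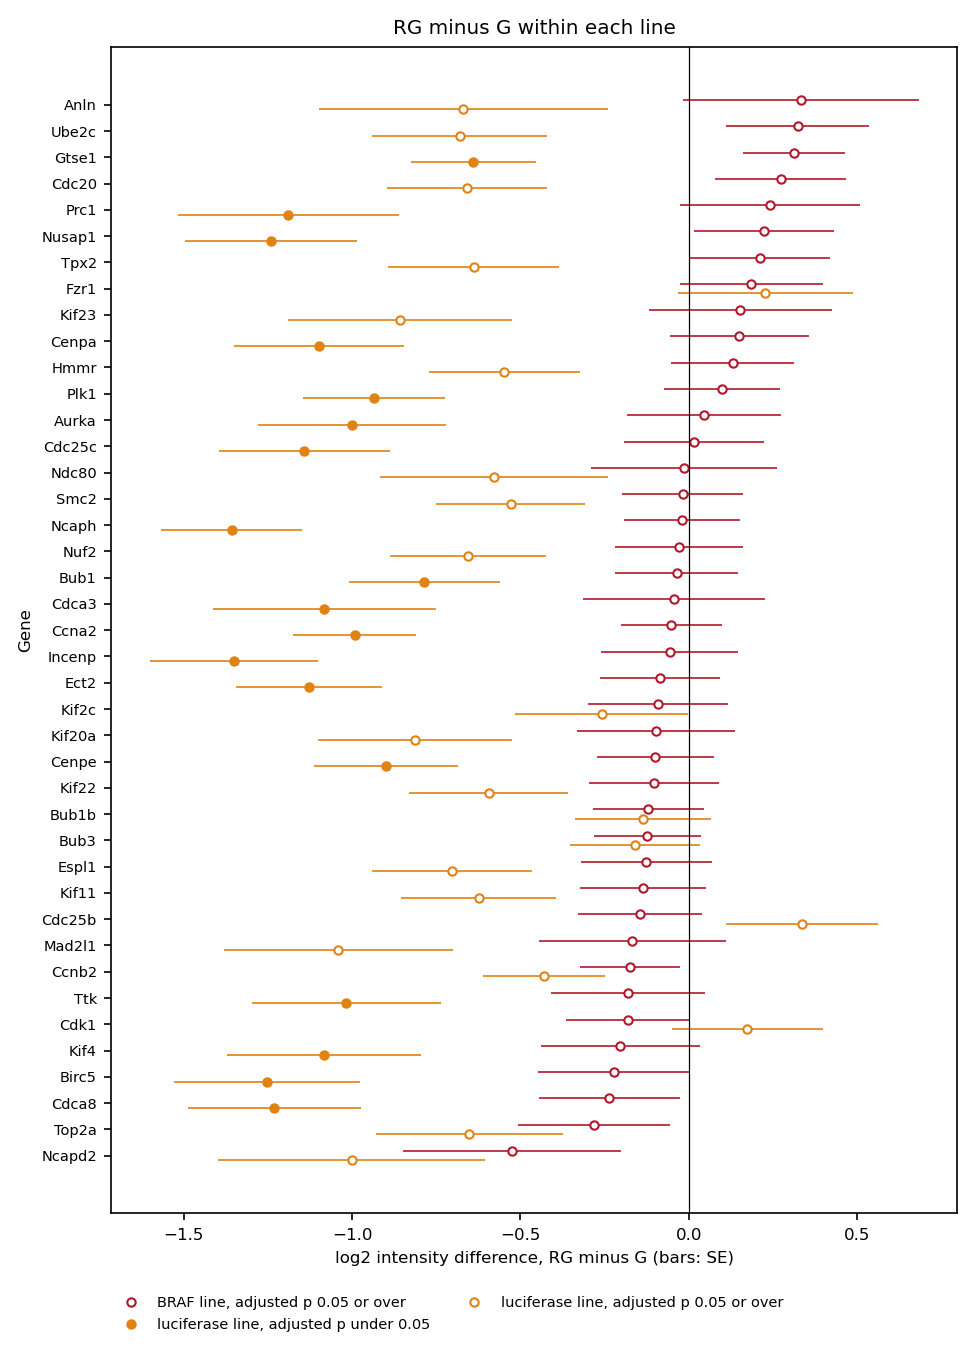
Log2 intensity difference, RG minus G, of each tested member in the BRAF line (red) and the luciferase line (orange), with bars of 1 SE from the limma fit and filled points for an adjusted p under 0.05. All BRAF points lie between -0.52 and 0.33 and are open, while 38 of 41 luciferase points lie below 0 and 18 are filled.

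Red Lgr5-high cells were also compared directly between the lines. The kinases Plk1, Aurka, Ttk and Bub1, the checkpoint protein Mad2l1, the centromeric histone Cenpa and 4 of 5 tested cytokinesis genes were higher in BRAF RG than in luciferase RG. Cdk1 and Anln did not pass on their brightest probes (-0.21 and 0.90), and the next-brightest probe of each gave 1.18 and 1.72. The dimmest kept probe of each gave -0.20 and 0.11. Of the 41 members, 20 passed, all higher in the BRAF line, where 16.6% of genes tested passed in either direction and 9.55% as higher. The members' median was 0.75 (0.74 with 4 dim members at their bound), against -0.01 over all genes, and for 28 members the 3 BRAF arrays lay above both luciferase arrays, as for 23.3% of genes tested. This comparison and the one within the luciferase line share the 2 luciferase RG arrays, so the overlap of their calls is not read as a result. Without luciferase mouse 1, 7 members passed (6 higher and 1 lower) and the median was 0.44. Without BRAF mouse 2 or BRAF mouse 3, 10 passed. With the mouse as a random block 23 passed, where 10% of genes passed as higher. Cenpa, Ncaph and Plk1 alone kept their call under all 15 alternatives run.

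In G cells, no member passed between the BRAF and luciferase lines (limma, 0 of 41 past the threshold, 1 with an unadjusted p under 0.05), where 0.217% of genes tested passed. The median was -0.09, against 0.01 over all genes, and the groups did not overlap for 15 members, 3 higher in BRAF G and 12 lower, beside 18.5% and 17.6% of genes tested.

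R cells carry the BRAF transgene outside the Lgr5-high gate, and NEG cells are their non-red counterpart. Of the 41 members, 6 were lower in R than in NEG: Ncaph and Smc2 of condensin, the passenger proteins Birc5 and Incenp, the kinesin Kif11 and the spindle protein Gtse1. Among all genes tested 12.6% passed, and 7.3% as lower. The median over members was -0.36, against -0.01 over all genes, 36 of 41 were negative, and 18 lay wholly below NEG, as did 16% of genes tested. The medians within mice 1, 2 and 3 were -0.50, -0.21 and -0.30. With the mouse as a block, fixed or random, 8 passed, where 9.39% and 9.85% of genes passed as lower. The count fell to 3 without the R array of mouse 1, and to 0, 1 and 1 without BRAF mouse 1, 2 and 3. Markers of leukocytes moved in the same comparison: 13 of 17 tested were lower in R than in NEG, with a median difference of -2.98 (-2.60 with 8 dim markers at their bound) and summed intensities of 3607 to 4928 in R and 21763 to 32437 in NEG. The part of leukocytes in the members' differences was not tested.

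Against RG, the red cells of the Lgr5-high gate, 5 members were lower in R: Ncaph, Kif2c, Incenp, Kif11 and Gtse1, where 2.21% of genes tested passed and 1.64% as lower. The median was -0.58, against 0.00 over all genes, with 39 of 41 negative and 30 wholly below RG, beside 10.9% of genes. Within mice 1, 2 and 3 the medians were -0.70, -0.58 and -0.51. With the mouse as a fixed block 16 members passed and as a random block 18, all lower in R, where 3.42% and 3.82% of genes passed as lower. Members that passed with each block but not without one included Plk1, Bub1, Ccna2, Top2a, Birc5, Tpx2, Prc1 and Espl1. This comparison shares its R arrays with the one against NEG. Without the R array of mouse 1 the count was 3, and it was 0, 0 and 1 without BRAF mouse 1, 2 and 3.

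Between G and NEG, the 2 non-red gates of the BRAF line, no member passed (limma, 6 with an unadjusted p under 0.05), where 2.21% of genes tested passed, almost all of them lower in G. The median was 0.27, against 0.04 over all genes, and 38 of 41 were positive. The 3 G arrays lay above the 3 NEG arrays for 16 members, as for 9.67% of genes tested. Of the 17 leukocyte markers 13 were lower in G than in NEG, with a median of -3.11 (-2.60 with 11 dim markers at their bound) and sums of 2115 to 2693 in G, and 13 were lower in R minus NEG than in RG minus G, with a median of -3.07, and their part was not tested here either. The red minus non-red difference was also compared between the Lgr5-low gates (R minus NEG) and the Lgr5-high gates (RG minus G): its median was -0.29, against 0.02 over all genes, with 35 of 41 negative. No member passed (limma, 1.27% of genes tested did, and 6 members had an unadjusted p under 0.05). The lowest was Gtse1, at -0.84 ± 0.21 (SE, adjusted p 0.0904, lower in 3 of 3 mice), followed by Ncaph at -0.76 ± 0.24 and Cenpa at -0.74 ± 0.29, and the highest were Cdk1, Kif4 and Ccnb2, at 0.31, 0.30 and 0.16.

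**Figure D3:**
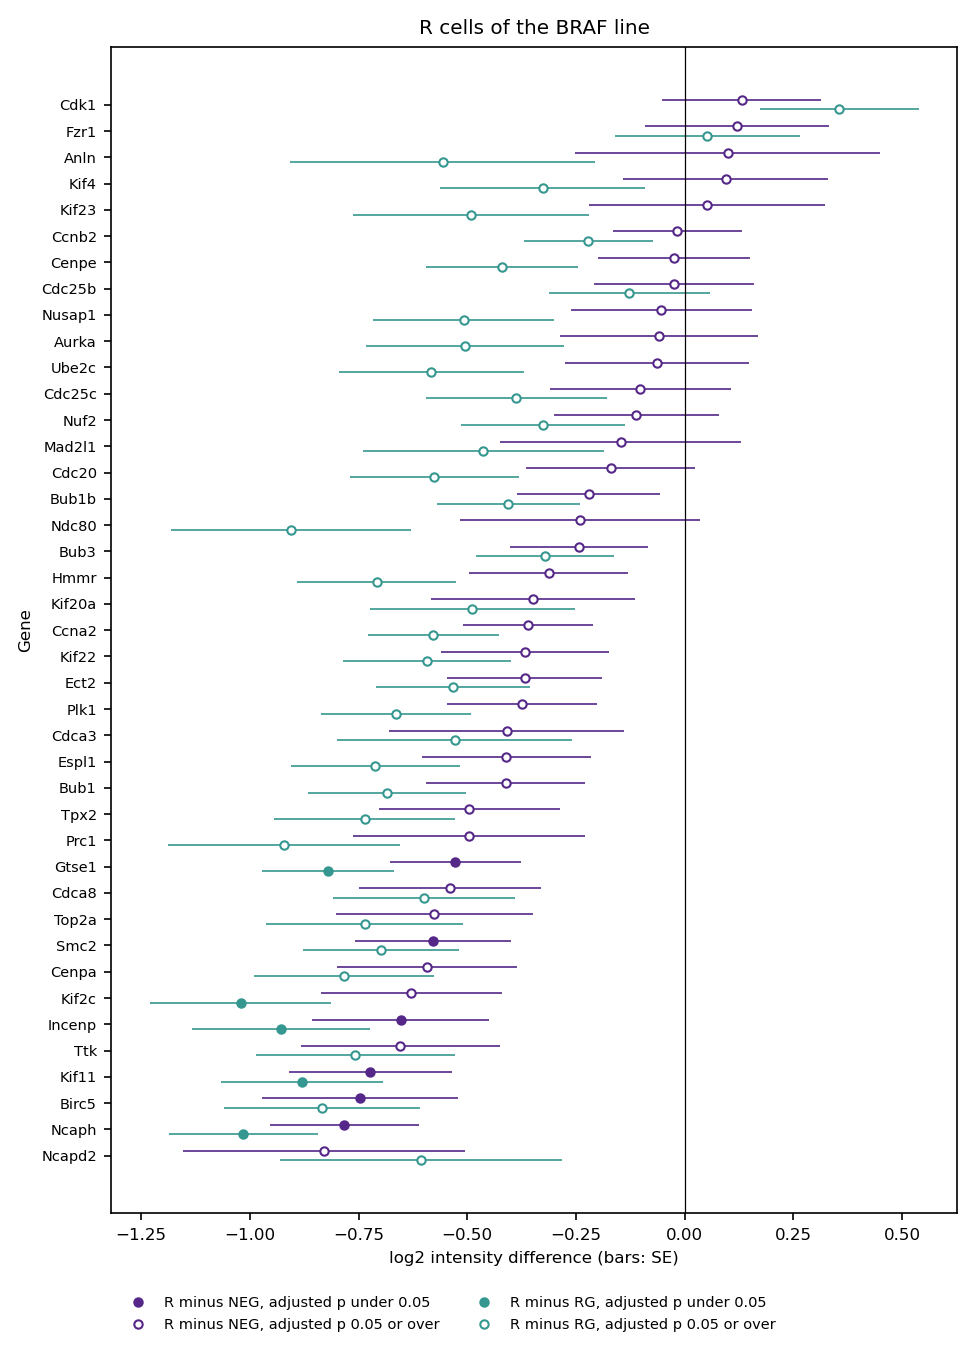
Log2 intensity difference of R minus NEG (purple) and R minus RG (teal) for each tested member in the BRAF line, with bars of 1 SE from the limma fit and filled points for an adjusted p under 0.05. Most points lie left of 0 (36 and 39 of 41), and the filled ones are 6 against NEG and 5 against RG.

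The members are taken below by role, with the intensity on each array in the order of the mouse numbers. Differences are log2 intensity differences with the SE of the limma fit, and p-values are adjusted over all genes tested. Group means are mean log2 intensity ± SD. Some genes have 2 roles and are counted in both. Beside the counts of a role stand the shares of all genes tested that passed in the same direction. These were 6.78% (lower in luciferase RG than G), 9.55% (higher in BRAF RG than luciferase RG), 7.3% (lower in R than NEG) and 1.64% (lower in R than RG). A role holds 3 to 7 tested genes, so a count of 1 or 2 is few calls to read.

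Among the cyclins and the phosphatases of CDK1, 2 of 5 tested genes fell in luciferase RG against G and the same number were higher in BRAF RG than in luciferase RG. Ccna2, the cyclin A2 that partners CDK2 and then CDK1, fell in luciferase RG, to a mean of 8.59 ± 0.22, against 9.58 ± 0.01 in luciferase G (SD, n = 2 each), a difference of -0.99 ± 0.18 (adjusted p 0.00319, lower in 2 of 2 mice). It was higher in BRAF RG than in luciferase RG by 0.76 ± 0.17 (adjusted p 0.00779, all 3 arrays above both). Cdc25c, a phosphatase that activates CDK1, was lower in luciferase RG than G (-1.14 ± 0.25, adjusted p 0.00948) and higher in BRAF RG than luciferase RG by 0.95 ± 0.23 (adjusted p 0.0128). Its other kept probes, from bright to dim, gave smaller differences of the same sign. These were -0.48 and -0.39 for luciferase RG minus G and 0.24 and 0.25 for BRAF RG minus luciferase RG. Ccnb2, cyclin B2, was dim, above the array median on 5 of 16 arrays, with intensities from 81.6 to 125. Its differences did not pass in any comparison, and the one within the luciferase line was -0.43 ± 0.18. Cdc25b, a second CDK1 phosphatase, was above the median on 6 arrays, with 106, 106 and 126 in BRAF RG, 117 and 197 in luciferase RG and 122 and 118 in luciferase G. The single high value of luciferase mouse 2 gave it the highest difference of the members within that line (0.34, adjusted p 0.354) and the lowest between the lines (-0.43, adjusted p 0.164).

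Cdk1, the kinase that drives mitosis, was measured by 3 kept probes that disagreed. The brightest, used in the tests, gave 458, 583 and 386 in R, 364, 401 and 337 in RG, 507, 361 and 393 in G and 422, 464 and 400.3 in NEG of the BRAF line, and 479.8 and 376 in RG and 348 and 407 in G of the luciferase line. The gates overlapped within each line, and the R minus RG difference was 0.35 ± 0.18 (adjusted p 0.313). The next-brightest probe gave 142, 339.7 and 344 in R, 481, 628 and 494 in RG, 409, 575 and 514 in G and 322, 418 and 371 in NEG of the BRAF line, and 237 and 231 in RG and 444 and 532 in G of the luciferase line. On that probe the R array of mouse 1 and both luciferase RG arrays were the lowest 3 of the 16. Fitted among all 16005 kept probes, its difference was -1.05 ± 0.33 within the luciferase line (adjusted p 0.0523), 1.18 ± 0.30 between the lines in RG (adjusted p 0.0167) and -1.06 ± 0.27 for R minus RG (adjusted p 0.0548). Which probe follows the Cdk1 transcript was not tested, since no probe sequences were used here.

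The 4 tested mitotic kinases, Plk1, Aurka, Ttk and Bub1, all fell in luciferase RG against G and were all higher in BRAF RG than in luciferase RG. Plk1, the polo kinase of centrosomes and mitotic entry, gave 1935, 1506 and 1163 in R, 2325, 2375 and 2440.4 in RG, 2113, 2293 and 2272 in G and 1935, 1945 and 1963 in NEG of the BRAF line, and 1015 and 766 in RG and 1744 and 1628 in G of the luciferase line. The 2 luciferase RG arrays were the lowest of the 16 and the 3 BRAF RG arrays the highest, while R spread widely among its 3 mice. Plk1 averaged 11.22 ± 0.04 in BRAF RG and 9.78 ± 0.29 in luciferase RG (SD, n = 3 and 2), a difference of 1.43 ± 0.19 (adjusted p 0.000483), or 2.70-fold. Within the luciferase line the RG minus G difference was -0.93 ± 0.21 (adjusted p 0.0103, lower in 2 of 2 mice). In G cells Plk1 had the highest BRAF minus luciferase difference of the members, 0.40 ± 0.19, which did not pass (adjusted p 0.663).

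Aurka, the Aurora kinase of the spindle poles, gave 736, 1036 and 756 in R, 1164, 1238 and 1141 in RG, 1075, 1108 and 1259 in G and 855, 839 and 907 in NEG of the BRAF line, and 405 and 907 in RG and 1245 and 1179.6 in G of the luciferase line. The RG array of luciferase mouse 1 was the lowest of the 16, and that of mouse 2 lay at the level of the highest NEG array. The difference was -1.0 ± 0.28 within the luciferase line (adjusted p 0.0302, lower in 2 of 2 mice) and 0.96 ± 0.25 between the lines in RG (adjusted p 0.0189). Ttk, the checkpoint kinase also known as Mps1, was above the array median on 1 of 2 luciferase RG arrays and differed there by -1.02 ± 0.28 from G (adjusted p 0.0284). Bub1, a kinase of the checkpoint at kinetochores, was dim in luciferase RG, above the median on 0 of 2 arrays. It was at least 1.60-fold lower than in luciferase G (adjusted p 0.0330) and BRAF RG was at least 1.59-fold higher than luciferase RG (adjusted p 0.0185).

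The chromosomal passenger complex guides chromosome attachment and cytokinesis. Its 3 tested members, Incenp, Birc5 and Cdca8, all fell in luciferase RG and were all higher in BRAF RG than in luciferase RG. Incenp, the scaffold of the complex, gave 193, 216 and 275 in R, 371, 409 and 520.0 in RG, 414, 437 and 491 in G and 343, 349 and 372 in NEG of the BRAF line, and 140.1 and 246 in RG and 453 and 495 in G of the luciferase line. Every R array lay below every NEG, RG and G array of the BRAF line, and both luciferase RG arrays lay below both G arrays. Its differences were -1.35 ± 0.25 for luciferase RG minus G (adjusted p 0.00319), 1.21 ± 0.23 for BRAF RG minus luciferase RG (adjusted p 0.00329), -0.65 ± 0.20 for R minus NEG (adjusted p 0.0477) and -0.93 ± 0.20 for R minus RG (adjusted p 0.0304), lower in 3 of 3 mice in both of the last.

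Birc5, survivin, gave 643, 769.9 and 1095 in R, 1769.5, 1392 and 1245 in RG, 1667, 1819.6 and 1602 in G and 1579, 1255 and 1294 in NEG of the BRAF line, and 505 and 882 in RG and 1539 and 1642 in G of the luciferase line. The R and luciferase RG arrays were the lowest 5. It differed by -1.25 ± 0.28 in luciferase RG against G (adjusted p 0.00883), by 1.12 ± 0.25 in BRAF RG against luciferase RG (adjusted p 0.00837) and by -0.75 ± 0.23 in R against NEG (adjusted p 0.0411, lower in 3 of 3 mice). Against RG the R difference of -0.83 ± 0.23 did not pass (adjusted p 0.0627), and it passed with the mouse as a block. Cdca8, borealin, gave 735, 708 and 591 in RG and 773, 751 and 867 in G of the BRAF line, and 326 and 358 in RG and 916 and 701 in G of the luciferase line. It was among the 3 lowest members in BRAF RG against G (-0.24 ± 0.21, adjusted p 0.846, lower in 3 of 3 mice), where no member passed, and fell in luciferase RG (-1.23 ± 0.26, adjusted p 0.00636).

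The spindle checkpoint was mixed. Of its 5 tested genes, the kinases Ttk and Bub1 fell in luciferase RG, and Ttk, Bub1 and Mad2l1 were higher in BRAF RG than in luciferase RG. Mad2l1, which holds Cdc20 inactive, gave 578, 659.5 and 602 in BRAF RG and 689, 665 and 709 in BRAF G, and 462 and 148 in luciferase RG and 543 and 533 in luciferase G. The RG value of luciferase mouse 2 was far below that of mouse 1. Its difference between the lines in RG was 1.23 ± 0.31 (adjusted p 0.0152), and the one within the luciferase line, -1.04 ± 0.34, did not pass (adjusted p 0.0580) but passed with the mouse as a block. In G cells its difference of BRAF over luciferase was 0.35 ± 0.31 (adjusted p 0.942). Bub1b, or BubR1, gave 195, 196 and 209 in R, 263, 266 and 265 in RG, 281, 286 and 298 in G and 252, 214 and 235 in NEG of the BRAF line, and 216 and 353 in RG and 283 and 324 in G of the luciferase line. Its R arrays were the lowest 3 of the 16, luciferase mouse 2 had the highest value of all in RG, and no difference passed (R minus RG -0.41 ± 0.16, adjusted p 0.201). Bub3, the small partner of Bub1 and Bub1b, varied from 131 to 216 over the 16 arrays and had one of the 3 highest BRAF minus luciferase differences of the members in G cells (185, 216 and 164 in BRAF G and 147 and 166 in luciferase G, 0.26 ± 0.18). It passed nowhere.

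The genes that control anaphase include the co-activators of the anaphase-promoting complex, and of 5 tested 1 fell in luciferase RG against G and 2 were higher in BRAF RG than in luciferase RG. Cdc20, the co-activator that starts anaphase, gave 832, 945 and 845 in R, 1412, 1292 and 1204 in RG, 1188, 996 and 1055 in G and 1236, 763 and 1004 in NEG of the BRAF line, and 617 and 966 in RG and 1298 and 1143 in G of the luciferase line. The 3 BRAF RG arrays lay above all 3 G arrays, both luciferase RG arrays lay below both G arrays, and the NEG arrays spread from 763 to 1236. Cdc20 was higher in BRAF RG than luciferase RG by 0.75 ± 0.22 (adjusted p 0.0286), and the differences of RG from G were -0.66 ± 0.24 in the luciferase line (adjusted p 0.0837) and 0.27 ± 0.19 in the BRAF line (adjusted p 0.778). Its other kept probes, from bright to dim, gave 0.53, 1.07 and 0.25 between the lines in RG. For RG minus G they gave 0.011, -0.74 and -0.29 in the luciferase line and 0.51, 0.26 and -0.0055 in the BRAF line. Cdca3, a trigger of mitotic entry, fell in luciferase RG (-1.08 ± 0.33, adjusted p 0.0452) and was higher in BRAF RG than luciferase RG by 0.93 ± 0.30 (adjusted p 0.0475). Ube2c, the ubiquitin-conjugating enzyme of the complex, gave 282, 452 and 396 in RG and 245, 323 and 326 in G of the BRAF line, a difference of 0.32 ± 0.21 that was higher in 3 of 3 mice and did not pass (adjusted p 0.741). In luciferase RG it gave 283 and 187, against 370.3 and 367 in luciferase G (-0.68 ± 0.26, adjusted p 0.10), which passed with the mouse as a block. Espl1, separase, was dim on all 3 R arrays, and its difference in R against RG (at least 1.54-fold lower, adjusted p 0.0644) passed with the mouse as a block alone.

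Fzr1, the co-activator Cdh1 that works after mitosis and in G1, ran apart from the other members. It gave 477, 504 and 379 in R, 411, 485 and 410.0 in RG, 410.2, 449.6 and 302 in G and 502, 343 and 412 in NEG of the BRAF line, and 721 and 455 in RG and 532 and 450.2 in G of the luciferase line. The groups overlapped in every within-line comparison, and luciferase mouse 1 had the highest value, in RG. Its differences were 0.23 ± 0.26 within the luciferase line (adjusted p 0.612), -0.40 ± 0.24 between the lines in RG (adjusted p 0.260), -0.36 ± 0.24 between the lines in G (adjusted p 0.840) and -0.12 ± 0.21 for BRAF G minus NEG. None of the 9 comparisons called Fzr1, Cdk1 or Cdc25b on the probe used.

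At the kinetochore and centromere, 2 of 4 tested genes fell in luciferase RG against G and 1 was higher in BRAF RG than in luciferase RG. Cenpa, the histone H3 variant that marks the centromere, gave 628, 1179 and 1153 in R, 1733, 1704 and 1475 in RG, 1598, 1515 and 1317 in G and 1561, 1273 and 1473 in NEG of the BRAF line, and 622 and 673 in RG and 1358 and 1412 in G of the luciferase line. The R array of mouse 1 and both luciferase RG arrays were the lowest 3 of the 16. Cenpa averaged 10.67 ± 0.13 in BRAF RG and 9.34 ± 0.08 in luciferase RG (SD, n = 3 and 2), a difference of 1.34 ± 0.23 (adjusted p 0.00208, 2.52-fold), and luciferase RG was below G (-1.10 ± 0.25, adjusted p 0.0113, lower in 2 of 2 mice). Cenpe, a kinesin of the outer kinetochore, gave 105 and 113 in luciferase RG, below the median on both arrays, against 185 and 222 in luciferase G, and was at least 1.70-fold lower (adjusted p 0.0135). In the BRAF line its G arrays, with 146, 167 and 176, lay above its NEG arrays, with 108, 116 and 122, and the difference did not pass (0.50 ± 0.17, adjusted p 0.306). Ndc80, which binds microtubules at the kinetochore, gave 126, 249.8 and 302 in R, 306, 495 and 413 in RG, 356, 378 and 478 in G and 279.8, 215 and 261 in NEG of the BRAF line. Its G minus NEG difference was the highest of the members, 0.68 ± 0.28 (adjusted p 0.491), and its next-brightest probe gave -0.028. Nuf2, the partner of Ndc80, was above the median on 7 of 16 arrays and passed in no comparison without a block.

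Kinesins move chromosomes and microtubules, and of 7 tested 2 fell in luciferase RG against G, 2 were higher in BRAF RG than in luciferase RG, 1 was lower in R than NEG and 2 were lower in R than RG. Kif11, the motor that pushes spindle poles apart, gave 477, 506 and 745 in R, 1084, 864 and 1196 in RG, 1108, 1023 and 1312 in G and 987, 831 and 987 in NEG of the BRAF line, and 879 and 1011 in RG and 1424 and 1483 in G of the luciferase line. All 3 R arrays lay below every other array of the 16. Kif11 averaged 9.14 ± 0.35 in R and 9.86 ± 0.14 in NEG (SD, n = 3 each), a difference of -0.72 ± 0.19 (adjusted p 0.0194), and R was below RG (-0.88 ± 0.19, adjusted p 0.0276), lower in 3 of 3 mice in both. In luciferase RG, Kif11 overlapped BRAF NEG, and its difference from luciferase G, -0.62 ± 0.23, passed with the mouse as a block alone (adjusted p 0.0886 without it). Kif2c, a depolymerase of microtubule ends, gave 86.9, 129 and 142 in R, below the median on 1 of 3 arrays and on average, against 198, 236 and 286 in RG and 173, 157 and 217 in NEG. It was at least 1.83-fold lower in R than RG (adjusted p 0.0210). In luciferase RG, at 219.5 and 200.2, it was close to luciferase G, at 225 and 280.3 (-0.26 ± 0.26, adjusted p 0.546).

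Kif4, a chromosome-bound kinesin, gave 571, 284 and 324 in R, 507, 495 and 412 in RG, 557, 565 and 502 in G and 396, 328 and 333 in NEG of the BRAF line, and 364 and 220.3 in RG and 626 and 574 in G of the luciferase line. It fell in luciferase RG (-1.08 ± 0.29, adjusted p 0.0244), whereas R and NEG overlapped and the G minus NEG difference of 0.62 ± 0.24 did not pass (adjusted p 0.391). Kif20a and Kif23, kinesins of the central spindle, were higher in BRAF RG than in luciferase RG, by 0.92 ± 0.26 (adjusted p 0.0275) and 0.96 ± 0.30 (adjusted p 0.0430). Kif22, which pushes chromosome arms, passed in no comparison (luciferase RG minus G -0.59 ± 0.24, adjusted p 0.113).

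Of the 5 spindle-associated genes, Prc1, Nusap1 and Gtse1 fell in luciferase RG, and Prc1, Tpx2 and Gtse1 were higher in BRAF RG than in luciferase RG. Gtse1, a microtubule-binding protein of G2 and mitosis, gave 838, 831 and 684 in R, 1460.2, 1321 and 1357 in RG, 1087, 1112 and 1131 in G and 1238, 1054 and 1092 in NEG of the BRAF line, and 672 and 925 in RG and 1176 and 1284 in G of the luciferase line. The 3 R and 2 luciferase RG arrays were the lowest of the 16, and the 3 BRAF RG arrays lay above all 3 G arrays. Its differences were -0.53 ± 0.15 for R minus NEG (adjusted p 0.0325), -0.82 ± 0.15 for R minus RG (adjusted p 0.0133), 0.81 ± 0.17 for BRAF RG minus luciferase RG (adjusted p 0.00602) and -0.64 ± 0.19 for luciferase RG minus G (adjusted p 0.0355). The next-brightest Gtse1 probe gave -0.0035 for BRAF RG minus luciferase RG and 0.043 for luciferase RG minus G. The dimmest kept probe gave 0.80 and -0.83 there. In BRAF RG against G, Gtse1 differed by 0.31 ± 0.15, higher in 3 of 3 mice, and did not pass (adjusted p 0.585).

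Nusap1, which bundles spindle microtubules, gave 503, 428 and 464 in RG and 335, 362 and 517 in G of the BRAF line, and 273 and 297 in RG and 667 and 678 in G of the luciferase line. Of the 6 groups, luciferase G had its highest mean log2 intensity (9.39) and luciferase RG its lowest (8.15). Nusap1 fell in luciferase RG against G (-1.24 ± 0.26, adjusted p 0.00600). It had the lowest BRAF minus luciferase difference of the members in G cells (-0.76 ± 0.23, adjusted p 0.322). Prc1, which crosslinks the central spindle, differed by -1.19 ± 0.33 in luciferase RG against G (adjusted p 0.0282) and by 1.14 ± 0.30 in BRAF RG against luciferase RG (adjusted p 0.0179). Tpx2, which activates Aurora A on the spindle, was higher in BRAF RG than luciferase RG by 0.86 ± 0.23 (adjusted p 0.0212). Hmmr, a spindle and hyaluronan-binding protein, was close to the threshold there (0.62 ± 0.20, adjusted p 0.0510).

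Cytokinesis genes included Ect2, the activator of RhoA that starts furrowing, which fell in luciferase RG (-1.13 ± 0.22, adjusted p 0.00401) and was higher in BRAF RG than in luciferase RG by 0.92 ± 0.20 (adjusted p 0.00673). Of the 5 tested cytokinesis genes, 2 fell in luciferase RG and 4 were higher in BRAF RG than in luciferase RG. Anln, anillin, the scaffold of the contractile ring, gave 138, 458 and 264 in R, 309.6, 499 and 343 in RG, 277, 273 and 352 in G and 189, 253 and 284 in NEG of the BRAF line, and 279.9 and 144 in RG and 317 and 322 in G of the luciferase line. Its highest values were in RG and R of BRAF mouse 2, and no comparison called it on this probe. It had the highest difference of the members in BRAF RG against G (0.33 ± 0.35, adjusted p 0.883). The next-brightest Anln probe (mean log2 intensity 8.00, against 8.12) gave -1.32 for luciferase RG minus G and 1.72 for BRAF RG minus luciferase RG. The probe used gave -0.67 and 0.90 there, and a dim one -0.29 and 0.11.

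Chromosome structure genes gave the member called most often. Ncaph, a subunit of condensin I, gave 186, 183 and 222 in R, 400.4, 379 and 411 in RG, 404, 457 and 354 in G and 327, 281 and 419 in NEG of the BRAF line, and 167 and 213 in RG and 499 and 467 in G of the luciferase line. The 3 R and 2 luciferase RG arrays lay below all other 11, and BRAF RG and G overlapped. Its mean was 7.56 ± 0.25 in luciferase RG and 8.91 ± 0.07 in luciferase G (SD, n = 2 each), a difference of -1.36 ± 0.21 (adjusted p 0.00103, lower in 2 of 2 mice). BRAF RG, at 8.63 ± 0.06 (n = 3), was above luciferase RG by 1.08 ± 0.19 (adjusted p 0.00244). R, at 7.62 ± 0.15, was below NEG, at 8.40 ± 0.29 (SD, n = 3 each) (-0.78 ± 0.17, adjusted p 0.00754) and below RG (-1.02 ± 0.17, adjusted p 0.00985), lower in 3 of 3 mice in both. The RG minus G difference itself differed between the lines by 1.34 ± 0.27 (adjusted p 0.0410), a call lost without any 1 of the 5 mice.

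Smc2, the ATPase core of condensin, gave 139.5, 132 and 139.6 in R and 231, 170.2 and 218 in NEG, with no overlap (-0.58 ± 0.18, adjusted p 0.0465, lower in 3 of 3 mice), and 267, 224 and 184 in RG. Ncapd2, a second subunit of condensin I, gave 342, 225 and 281 in R, 533, 301 and 475 in RG, 721, 534 and 589 in G and 583, 408 and 509.5 in NEG of the BRAF line, and 201 and 611 in RG and 715 and 687 in G of the luciferase line. It had the lowest difference of the members both in R against NEG (-0.83 ± 0.32, adjusted p 0.110) and in BRAF RG against G (-0.52 ± 0.32, adjusted p 0.720), each lower in 3 of 3 mice and neither past the threshold. The other kept Ncapd2 probes, from bright to dim, gave -0.59 and -0.56 in R against NEG. In BRAF RG against G they gave only -0.15 and -0.083. Top2a, the topoisomerase that untangles sister chromosomes, gave 257, 328 and 305 in R, 464, 504 and 509 in RG, 453, 577 and 817 in G and 389, 426 and 514 in NEG of the BRAF line, and 349 and 609.7 in RG and 764 and 687 in G of the luciferase line. The 3 R arrays were the lowest of the 16, while luciferase RG spread between R and G levels. Top2a passed in no comparison, with -0.74 ± 0.23 in R against RG (adjusted p 0.0961), which passed with the mouse as a block, and -0.28 ± 0.23 in BRAF RG against G (adjusted p 0.818).

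**Figure D4:**
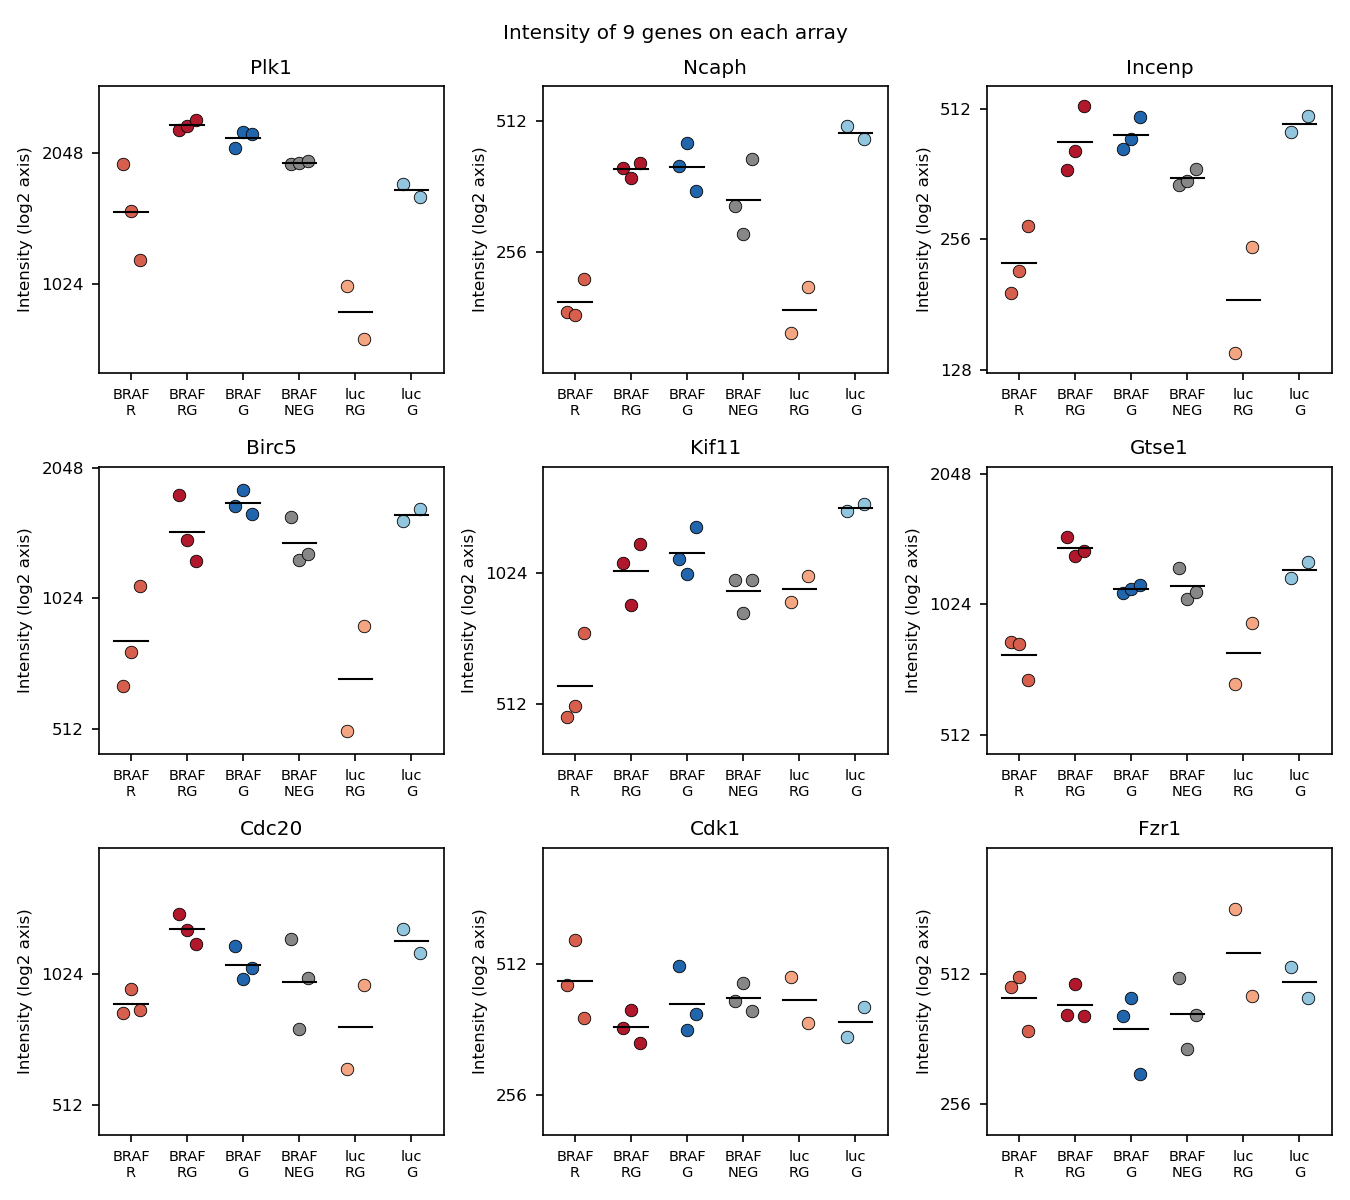
Intensity (log2 axis) of 9 members on each array, by line and gate, with a point per mouse and a line at the geometric mean of the group. Plk1, Ncaph, Incenp, Birc5 and Gtse1 are low in BRAF R or luciferase RG or in both, Kif11 is lowest in BRAF R, and the gates of Cdk1 and Fzr1 overlap within each line.

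Other genes of cell division were read from lists outside the 48. Of 64 further mitotic genes, 47 were tested: 25 fell in luciferase RG against G, 18 were higher in BRAF RG than luciferase RG, 9 were lower in R than NEG, 11 were lower in R than RG and none passed in BRAF RG against G (limma, 2 with an unadjusted p under 0.05). The shares of all genes tested that passed in the direction of these first 4 counts were 6.78%, 9.55%, 7.3% and 1.64%. Leaving out 1 mouse or the R array of mouse 1, the 4 counts were 4 to 7, 4 to 15, 1 to 8 and 0 to 5. The kinetochore gene Cenph was at least 2.99-fold lower in luciferase RG than G (adjusted p 7.50e-05) and at least 3.06-fold higher in BRAF RG than luciferase RG (adjusted p 2.75e-05). Aspm, a protein of the spindle poles, was lower in R than NEG (-1.29 ± 0.26, adjusted p 0.00442) and lower in R than RG (-1.27 ± 0.26, adjusted p 0.0206). Of 11 tested subunits and partners of the anaphase-promoting complex, 2 fell in luciferase RG (Anapc5, -0.94, and Anapc7, -0.75), Anapc7 and Cdc27 were higher in BRAF RG than luciferase RG (0.71 and 0.70), and Anapc7 alone was lower in R than NEG (-0.57, adjusted p 0.0465). With 6.78%, 9.55% and 7.3% of all genes tested passing in these directions, 2, 2 and 1 of 11 are few calls to read, and leaving out 1 mouse or the R array of mouse 1 gave 0, 0 to 2 and 0.

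Replication genes act in S phase, before mitosis. Of 21 tested, 13 fell in luciferase RG, 13 were higher in BRAF RG than luciferase RG, 12 were lower in R than NEG and 8 were lower in R than RG, beside the same 4 shares of all genes. Leaving out 1 mouse or the R array of mouse 1, these counts were 4 to 9, 6 to 11, 7 to 9 and 0 to 7. Mcm7, a subunit of the replicative helicase, differed by -2.26 ± 0.35, 2.42 ± 0.32, -1.55 ± 0.28 and -1.47 ± 0.28 in these 4 comparisons (adjusted p 0.000977, 0.000413, 0.00216 and 0.0159). Among 18 tested transcription factors of the cycle, E2f1, which drives S phase genes, fell in luciferase RG (-1.65 ± 0.27, adjusted p 0.00169), was higher in BRAF RG than luciferase RG by 1.10 ± 0.25 (adjusted p 0.00885) and was lower in R than NEG (-0.91 ± 0.22, adjusted p 0.0147). Mybl2, the B-Myb that joins the MuvB core, was at least 2.07-fold lower in luciferase RG (adjusted p 0.0290) and at least 2.61-fold higher in BRAF RG than luciferase RG (adjusted p 0.00520). Foxm1, the activator of late mitotic genes, passed nowhere, with -0.48 ± 0.24 in luciferase RG against G (adjusted p 0.205), 0.17 ± 0.22 in BRAF RG against luciferase RG (adjusted p 0.643) and -0.76 ± 0.20 in R against RG (adjusted p 0.0543).

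Markers of other cell types also differed between the gates, and not only where members did. Of all genes tested, 11.9% passed in either direction in luciferase RG against G and 12.6% in R against NEG. The shares were 16.6% in BRAF RG against luciferase RG, 2.21% in R against RG and 0.801% in BRAF RG against G. Each list is short, so a count of 1 or 2 is few calls to read. In luciferase RG, 6 of 6 tested goblet markers were higher than in luciferase G, with a summed intensity of 35717 to 39222 in RG and 7172 to 7798 in G, and so were 8 of 10 enteroendocrine markers, with sums of 33399 to 33776 in RG and 5487 to 6970 in G. Paneth markers were higher there for 3 of 5 (sums 32996 to 33751 in RG and 19253 to 20189 in G), and tuft markers lower for 3 of 7. Of 12 stem cell markers 7 were lower there, with sums of 15258 to 18287 in RG and 32308 to 33390 in G, and 7 were lower in R than in NEG and 4 lower in R than in RG. In R cells the goblet sum was 26164 to 34339 and the enteroendocrine sum 24228 to 53758, against 12388 to 21376 and 15299 to 16569 in BRAF RG, and 15941 to 21540 and 9455 to 15161 in NEG. Against luciferase RG, BRAF RG had lower goblet and enteroendocrine sums, with 5 of 6 and 5 of 10 markers lower and 1 enteroendocrine marker higher. Against BRAF G, where 0 of 41 members passed, BRAF RG had 4 of 10 enteroendocrine markers higher (sums 15299 to 16569 in RG and 4792 to 8345 in G). No goblet marker passed there (limma, 5 of 6 with an unadjusted p under 0.05), with sums of 12388 to 21376 in RG and 7464 to 10489 in G, and 5 of 7 tuft markers were lower (sums 700 to 763 in RG and 1806 to 2258 in G). Leaving out 1 BRAF mouse, these counts were 0 to 3 (enteroendocrine), 0 to 1 (goblet) and 1 to 5 (tuft). It gave 6 to 7 stem cell markers lower in R than NEG and 0 to 1 lower in R than RG. Against luciferase RG, it left 4 to 5 goblet and 2 to 4 enteroendocrine markers lower in BRAF RG. Leaving out 1 luciferase mouse leaves 1 array a group. In luciferase RG against G, the goblet count then stayed the same, while the stem cell, Paneth, tuft and enteroendocrine counts fell. In BRAF RG against luciferase RG, the goblet and enteroendocrine counts of lower markers both fell. In R against NEG, 9 of 10 enteroendocrine and 2 of 6 goblet markers were higher and 6 of 7 tuft markers lower. Without 1 BRAF mouse, 3 to 8, 1 to 2 and 3 to 5 of them passed. Chga, the defining enteroendocrine marker, measured 4556 to 4692 in luciferase RG and 753 to 1171 in luciferase G, and Muc2, that of goblet cells, had no probe. All 8 tested enterocyte markers had positive differences in luciferase RG against G (median 1.27) and in R against NEG (0.98). Krt20 alone passed in each. All 8 were also positive in BRAF RG against G (0.88), where none passed. In BRAF RG against luciferase RG all 8 were negative (median -0.86) and Sis alone passed. Leaving out 1 BRAF mouse, 0 to 6 passed there and 1 in R against NEG. The enterocyte counts that use luciferase RG fell without either luciferase mouse. The part of any of these cell types in the members' differences was not tested.

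**Figure D5:**
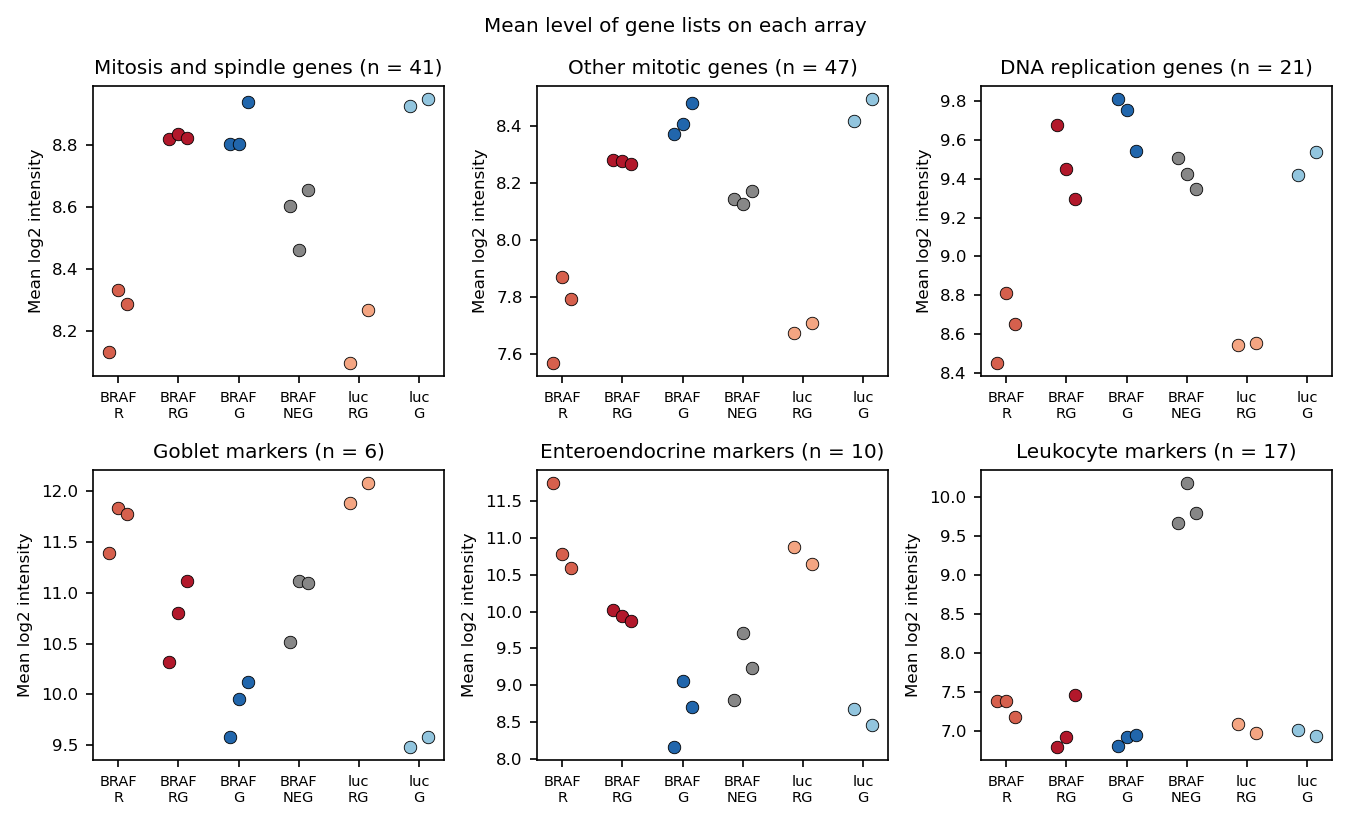
Mean log2 intensity of 6 gene lists on each array, by line and gate, with a point per mouse. Mitotic and replication genes are low in BRAF R (8.13 to 8.33 for the 41 members) and luciferase RG (8.10 to 8.27), where goblet and enteroendocrine markers are high, and leukocyte markers are high in NEG alone.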

How the data were processed

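The values analysed are the deposited intensities of 16 Illumina bead arrays, 1 per sorted fraction and mouse. They are linear, and how background was treated is not given in the sources used here; GenomeStudio is named per the submitters' processing notes, without a version. The authors' deposited intensities share 1 distribution across arrays (sorted values within 1.2 of each other), run from 55.7 to 40121.2 and were taken as quantile-normalized; 32 columns of a second table, not normalized, match no labelled array and were not used. Labelling used a NuGen amplification kit, per the labels' protocols.

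Of 25697 probes, 23978 have 1 gene symbol in the platform annotation and 1719 have none. Intensities were put on the log2 scale, probes brighter than the median of 2 or more arrays were kept (16005), and the brightest probe stood for each gene (10607 genes). All 6 groups were fitted together with limma 3.58.1 (R 4.3.3), with Benjamini-Hochberg adjustment over all genes tested and a threshold of 0.05. The steps were tested on simulated data. The limited number of arrays, 2 or 3 a group, limits the precision. Alternatives were the filter, background, scaling, array weights, mouse as a block, the groups compared only, the mean of all kept probes, and each mouse or array left out, for the further gene lists after seeing their counts. The sample descriptions in the labels name the mouse of each fraction, which pairs fractions of 1 mouse. Same-mouse deviations correlated above 0.1 in 18 of 18 pairs of fractions in the BRAF line (median r 0.319) and in 0 of 2 in the luciferase line (median r 0.0457).

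The members and the gene lists were chosen with earlier results of these data known. Named genes are 10 set genes of the list (9 with a probe) and, per comparison, the members past the threshold or, where more than 8 or none passed, the 3 lowest and 3 highest. Other members named were chosen after their values were seen. Promoter sequences are RefSeq's (GRCm38.p6), read for both strands of each motif; gene positions were not used.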

Additional observations from a re-analysis of the deposited data

Results flagged for a closer look

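The RG minus G difference of Ncaph, a condensin subunit, differed between the BRAF and luciferase lines by 1.34 on the log2 scale, which was tested as an interaction in the limma fit (adjusted p 0.0410) and was the only such call among the 41 tested members. BRAF RG and G overlapped, while both luciferase RG arrays lay below both luciferase G arrays. The call was lost in 7 of 16 alternatives, among them each of the 5 mice left out.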

How the results depend on the processing

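Only 2 or 3 mice stood behind each group, and the R array of BRAF mouse 1 and both luciferase RG arrays were the least like their groups. Array intensity under the array median limits Ccnb2, Nuf2, Cdc25b, Bub1, Cenpe, Espl1 and Kif2c to bounds in some groups. No median over the members with a size above 0.1 changed sign in any alternative. Leaving out 1 mouse or array, the count was 0 to 3 (R against NEG), 1 to 10 (luciferase RG against G), 7 to 15 (BRAF RG against luciferase RG), 0 to 3 (R against RG) and 0 (RG minus G between the lines), while the median was -0.81 to -0.62 in luciferase RG against G and 0.44 to 0.81 in BRAF RG against luciferase RG. With the groups compared only, 0, 4, 3, 0 and 3 members passed in these 5 comparisons, fewer arrays entering each fit, and 1 passed in G against NEG.

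The mouse numbers pair the fractions, and with the replicate block 16 members (fixed) and 18 (random) passed in R against RG, 6 and 8 in RG minus G between the lines, and 1 (random) in the difference between Lgr5-low and Lgr5-high gates. With a fixed or random block 25 passed in luciferase RG against G and 8 in R against NEG, and no block changed the absence of calls in BRAF RG against G.

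With the 5th percentile subtracted, medians were -1.15 in luciferase RG against G, 1.01 in BRAF RG against luciferase RG, -0.77 in R against RG, 0.35 in G against NEG and 1.12 in RG minus G between the lines, and counts were 3 in R against NEG, 3 in R against RG and 0 in the last. With array weights the counts were 11 in BRAF RG against luciferase RG, 2 in BRAF G against luciferase G, 3 in R against RG, 1 in G against NEG, 0 in RG minus G between the lines and 1 between Lgr5-low and Lgr5-high gates, where no filter also gave 1. With the mean of all kept probes 10 passed in R against RG. The cause was not tested.

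Signs turned for probes that disagree and for values near 0. In luciferase RG against G, Cdk1 was -0.21 with the mean of probes, -1.05 with the next-brightest probe and -0.12 to 0.46 leaving out a mouse; Cdc25b was -0.060 to 0.73 leaving out a mouse; Gtse1 was 0.043 with the next-brightest probe. In BRAF RG against luciferase RG, Cdk1 was 0.26 with the mean of probes and 1.18 with the next-brightest probe, and Gtse1 -0.0035 with the next-brightest probe. In G against NEG, Cdk1 was 0.034 with array weights, 0.089 with the mean of probes, 0.43 with the next-brightest probe and -0.20 to 0.12 leaving out a mouse. There Fzr1 was 0.048 with the mean of probes, 0.19 with the next-brightest probe and -0.37 to 0.050 leaving out a mouse, Gtse1 was 0.15, 0.31 and -0.069 to 0.064 in the same 3, and Ndc80 was -0.028 with the next-brightest probe. In the difference between Lgr5-low and Lgr5-high gates, Kif4 was -0.093 with the mean of probes, -0.27 with the next-brightest probe and -0.0070 without the R array of mouse 1, and Cdk1 was -0.19 and -0.63 with these probes. The next-brightest probe was an alternative chosen after seeing the data. Over the members named by the rule and all their alternatives, a call was lost in 208 cases and gained in 9.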
